A study of Mus musculus with 24 samples.

Results

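AP-1 is a family of transcription factors built from pairs of basic leucine zipper proteins, and many of its genes are immediate early genes, which are transcribed soon after a growth signal or a stress without new protein synthesis. The genes described here in sorted mouse mammary epithelium were the rows of the deposited gene table whose symbol was Fos, Fosb, Fosl1 or Fosl2 (the Fos family), Jun, Junb or Jund (the Jun family), Atf3, Egr1 or Ier2, and all 10 were found among its 24007 genes. The rule names symbols and uses no measured value, but the symbols were picked with earlier results of these data known, and all 10 passed the expression filter in every comparison below.

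The cells came from female FVB/N mice of 10 to 12 weeks in estrus, either wild type (WT) or knockout for Id4 (KO), which encodes a helix-loop-helix protein that binds other helix-loop-helix factors and keeps them off DNA. Glands of 4 to 8 mice were pooled for each replicate, and live lineage-negative cells were sorted into CD24+CD29hiCD61+ basal cells, CD24+CD29loCD61+ luminal progenitors (LP) and CD24+CD29loCD61- mature luminal cells (ML). There were 4 biological replicates for each genotype in each population, 24 libraries in 6 groups, and the labels name no Cre driver for the knockout. RNA of 0.5 to 2 ng per sample was amplified before sequencing.

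Fos proteins pair mainly with Jun proteins, while Jun proteins can also pair with each other, and the pairs bind the AP-1 site. Fos, Fosb, Junb, Egr1 and Ier2 are classical immediate early genes whose RNA is short-lived. Fosl1 and Fosl2 encode the Fos relatives FRA1 and FRA2, which lack the strong activation domain of FOS and usually follow it with a delay. Egr1 encodes a zinc finger factor, Ier2 a nuclear regulatory protein and Atf3 a leucine zipper factor that is induced by many stresses. In the mammary gland genes of this kind respond to growth factors, to involution and also to the enzymatic digestion and sorting that precede any measurement on isolated cells.

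Library totals ran from 3098425 to 7246443 counts, and the 10 members took 0.380% to 1.36% of a library's counts. Levels are given as CPM, in which library sizes carry TMM factors from the 24 libraries and 3 counts equalled 0.378 to 0.976 CPM. Id4 itself stood at 13.2 to 86.3 CPM in WT basal libraries and at 0.942 to 11.1 CPM in KO basal libraries, and it was at or below 1.41 CPM in every luminal library. Summed markers of each population were highest in the libraries labelled with it (basal markers 7758 to 14066 CPM in basal cells and at most 217 CPM in the others). WT basal replicate 2 stood apart, since its luminal progenitor markers summed to 6319 CPM, close to the lowest LP library at 6856 CPM. KO basal replicate 3 had the fewest counts and the highest sum of endothelial markers, 207 CPM. Where leaving out either library changed a call in basal cells, the value without it is given. Mature luminal markers summed to 561 to 882 CPM in WT LP and to 934 to 1867 CPM in KO LP libraries. KO ML replicate 2 had the lowest mature luminal sum of the ML libraries, 5093 CPM, and their highest luminal progenitor sum, 2029 CPM. The part of these luminal sums in the members' differences was not tested. In such bulk samples, fewer cells that express a gene and less RNA per cell cannot be told apart.

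RefSeq promoter windows from 250 bases before to 50 bases after the start were at hand for 7 members (Fos, Fosb, Fosl2, Jun, Junb, Jund and Atf3), and those of Fosl1, Egr1 and Ier2 were not used here. The 250 bases before the start are shown for 4 members on GRCm38.p6: Fos and Junb, whose levels followed each other across libraries, Fosl2, which set LP apart from ML, and Atf3, which was highest in ML. Each is written 5′ to 3′ on the strand of its gene, and capitals mark matches to the motifs that were searched, on both strands.
Fos, chr12:85473640-85473889, plus strand: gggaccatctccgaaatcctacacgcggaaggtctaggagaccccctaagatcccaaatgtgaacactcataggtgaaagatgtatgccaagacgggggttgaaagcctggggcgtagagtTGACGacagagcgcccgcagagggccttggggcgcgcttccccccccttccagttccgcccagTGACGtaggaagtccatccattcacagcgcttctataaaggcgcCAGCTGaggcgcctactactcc
Junb, chr8:84978749-84978998, minus strand: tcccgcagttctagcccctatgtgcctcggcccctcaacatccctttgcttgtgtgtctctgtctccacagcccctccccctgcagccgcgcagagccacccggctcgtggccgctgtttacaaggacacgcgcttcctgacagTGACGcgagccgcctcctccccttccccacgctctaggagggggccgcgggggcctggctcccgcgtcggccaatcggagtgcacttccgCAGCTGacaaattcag
Fosl2, chr5:32136222-32136471, plus strand: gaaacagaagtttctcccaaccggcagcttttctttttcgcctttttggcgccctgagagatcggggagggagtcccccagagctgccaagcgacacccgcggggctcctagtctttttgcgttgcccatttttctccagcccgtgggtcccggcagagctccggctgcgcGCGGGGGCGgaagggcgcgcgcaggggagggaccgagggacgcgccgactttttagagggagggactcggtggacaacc
Atf3, chr1:191183334-191183583, minus strand: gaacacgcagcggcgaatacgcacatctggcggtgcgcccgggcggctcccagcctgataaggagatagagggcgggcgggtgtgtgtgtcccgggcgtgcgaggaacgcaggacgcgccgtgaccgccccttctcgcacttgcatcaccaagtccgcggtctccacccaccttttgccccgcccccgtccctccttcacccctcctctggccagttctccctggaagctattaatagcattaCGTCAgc
The windows of Fos, Fosb, Junb and Atf3 held TGACG, the conserved core of the cyclic AMP response element, which was added to the search after the sequences had been seen. It lay 129 and 66 bases before the start in Fos, 60 in Fosb, 106 in Junb and 7 in Atf3 (there as its complement CGTCA), and 20.8% of all 32851 promoter windows held it. No window of the 7 held the AP-1 site TGANTCA (7.81% of all windows), the full element TGACGTCA (1.79%) or a CArG box, the site of serum response factor (1.63%). The EGR site GCGNGGGCG was present in Fosl2 and Fosb and in 5.55% of all windows. The E-box CAGCTG was present in Fos, Junb and Jund (16.3% of all windows), and the E-box CACCTG only in Fosb among the 7 (20.2%). These are matches of letters in short windows and describe no binding, and sites farther from the start were not searched. The starts are those of RefSeq and can differ from the annotated gene ends. The Atf3 window ends at 191183583, inside the gene, which extends to 191218039 on its minus strand. The Fosl2 window also lies inside its gene, and the Jund window ends at 70697738, before its gene begins at 70698949.

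Compared per length of transcript, so that genes can be set side by side, Egr1 had the highest mean of the members in basal cells and Fosb in ML cells, while in LP cells the order of these 2 was not beyond their spread. In WT basal libraries the level of Egr1 was 2966 ± 1416 TPM (SD, n = 4; TPM computed here from the counts and deposited lengths), followed by Fos at 1161 ± 647 and Fosb at 1113 ± 161, and the last 2 did not differ beyond their spread, while the libraries' ranges of Egr1 and Fos overlapped. In WT ML cells the order was Fosb at 1452 ± 72.3, Fos at 1159 ± 466, Atf3 at 1129 ± 131 and Egr1 at 719 ± 193 (SD, n = 4), with Fosb and Fos, and Fos and Atf3, within each other's spread. In LP cells Egr1 was at 1073 ± 603 and Fosb at 908 ± 327 in WT, and they were at 1232 ± 575 and 1511 ± 608 in KO. By mean per-length level Egr1 ranked 20th of the 24007 genes in WT basal cells and Fosb ranked 42nd in WT ML cells. Jund and Ier2 were the lowest members in basal cells, with 27.8 ± 8.53 and 41.2 ± 23.4 TPM in WT (SD, n = 4), within each other's spread.

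The mean make-up of both families differed between populations. Fos and Fosb together made up most of the Fos family's summed per-length level in all 6 groups. In WT LP cells Fosl2 took 18.2% ± 1.55 of the family, against 8.63% ± 1.80 in WT basal and 2.82% ± 0.66 in WT ML cells (SD, n = 4). The WT libraries of the 3 populations did not overlap in this share. In KO cells its shares were 12.6% ± 3.27, 8.64% ± 1.90 and 2.55% ± 1.37, and the LP and basal libraries overlapped. In the Jun family Jun held 84.2% ± 2.42 of the sum in WT ML, 75.4% ± 2.68 in WT LP and 63.5% ± 6.5 in WT basal cells. Junb ran the other way, with 29.9% ± 4.10 in WT basal cells and 11.3% ± 1.49 in WT ML cells. The KO groups had the same order of shares for Jun, 83.9%, 77.3% and 60.9%.

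**Figure D1:**
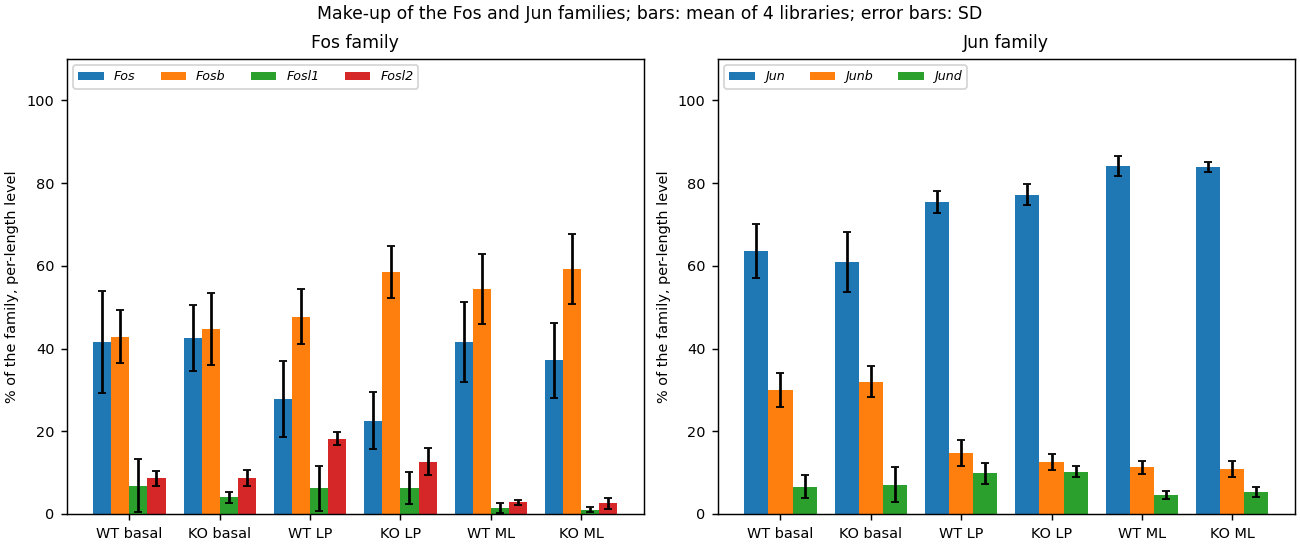
Share of each gene in the summed per-length level of the Fos family (left) and the Jun family (right), in percent, for the 6 groups; bars are means of 4 libraries and error bars are SD. Mean Fosl2 is highest in LP and lowest in ML cells, and Junb is highest in basal cells.

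The differences between populations were tested in the 12 WT libraries, 4 against 4, with edgeR's quasi-likelihood test adjusted over 12771 genes, and were repeated in the 12 KO libraries over 12711 genes. Of the 10 members, 2 were called higher and 1 lower in WT basal than in WT LP cells, where 9.12% of all genes were higher and 6.68% lower. Between WT basal and WT ML cells 2 were higher and 1 lower in basal cells (all genes: 14.0% and 10.6%), and between WT LP and WT ML cells 1 was higher and 1 lower in LP (6.62% and 4.89%). In KO libraries 3 members were higher and none lower in basal than in LP cells (8.12% and 6.69% of all genes). In KO basal against KO ML cells 4 were higher and 2 lower in basal cells (11.9% and 7.51%), and 2 were higher and none lower in KO LP than in KO ML cells (4.08% and 1.59%).

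**Figure D2:**
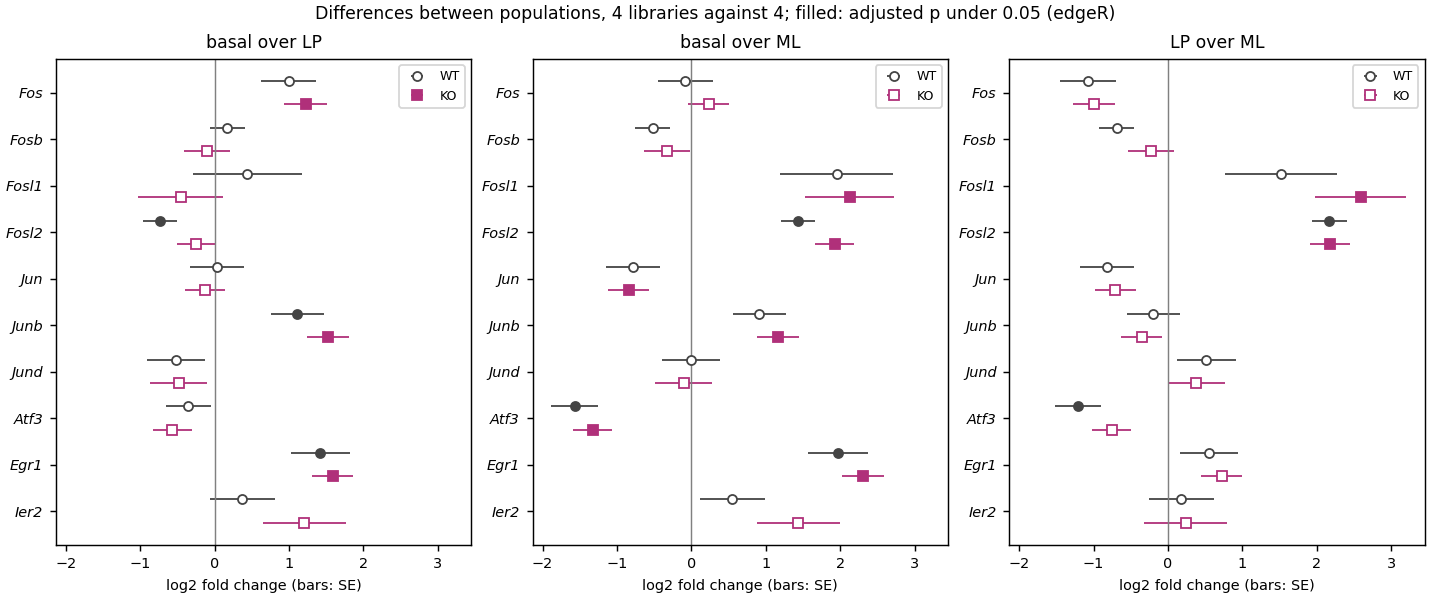
Log2 fold change of the 10 genes between each pair of populations (x axis), in WT (circles) and KO (squares); bars are standard errors and filled symbols have an adjusted p under 0.05. Fosl2 lies far to the right over ML in both genotypes, Egr1 to the right for basal cells, and Atf3 to the left over ML.

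Fosl2, the gene of FRA2, was low in ML cells. It stood at 831, 525, 629 and 645 CPM in WT basal replicates 1 to 4, at 1157, 1037, 822 and 1398 CPM in WT LP and at 182, 285, 284 and 234 CPM in WT ML. In KO cells the values were 908, 633, 601 and 906 CPM in basal, 1298, 722, 893 and 842 CPM in LP and 205, 277, 208 and 155 CPM in ML. All 8 ML libraries lay below all 16 others. By this measure 5.46% of 16000 genes lay wholly higher in basal than in ML cells, and 4.54% in LP than in ML cells. The LP to ML difference was 2.17 log2 (SE 0.23, edgeR adjusted p = 2.57e-05), or 4.50-fold, in WT and 2.18 log2 (SE 0.26, adjusted p = 1.80e-04) in KO. The basal to ML difference was 1.44 log2 (SE 0.23, adjusted p = 2.47e-04) in WT and 1.92 log2 (SE 0.26, adjusted p = 5.86e-05) in KO. Both differences passed in both genotypes under every alternative tried. Fosl2 was lower in WT basal than in WT LP cells by -0.73 log2 (SE 0.22, adjusted p = 0.0353), but the call was lost without any 1 of the 4 replicate numbers and without WT basal replicate 2 alone (adjusted p = 0.0527), and it was -0.25 (SE 0.25, adjusted p = 0.577) in KO.

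Atf3, the stress-induced leucine zipper factor, ran the other way. Its levels were 997, 1212, 1324 and 1455 CPM in WT ML replicates 1 to 4 and 1068, 999.5, 1212 and 1580.3 CPM in KO ML, above every basal and LP library. Among 16000 genes, 4.91% lay wholly lower in basal than in ML cells, and 3.4% in LP than in ML cells. In basal cells it stood at 485, 554, 309 and 303 CPM in WT and at 442, 288, 686 and 405 CPM in KO. In LP cells it stood at 404, 879, 294 and 566 CPM in WT and at 624, 753, 699.7 and 743 CPM in KO. The WT basal to ML difference was -1.57 log2 (SE 0.31, edgeR adjusted p = 0.00154), a level 2.97-fold higher in ML, and the KO difference was -1.33 (SE 0.26, adjusted p = 0.00172), which was lost without replicate number 4 (adjusted p = 0.0522). The LP to ML difference was -1.21 (SE 0.31, adjusted p = 0.0164) in WT, lost without replicate number 1, 3 or 4, and -0.76 (SE 0.26, adjusted p = 0.119) in KO. Between KO basal and KO LP cells Atf3 differed by -0.57 (SE 0.26, adjusted p = 0.165), and without KO basal replicate 3 it was lower in basal cells by -0.91 (SE 0.24, adjusted p = 0.0151).

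Egr1 marked basal cells. WT basal replicates 1 to 4 stood at 6452, 7221, 2475 and 2755 CPM and KO basal replicates at 7125, 5174, 5608 and 5259 CPM. The LP libraries held 2755, 1755, 732 and 1917 CPM in WT and 3227, 1297, 1319 and 2194 CPM in KO, and the ML libraries held 1404, 1407, 1095 and 979 CPM in WT and 1332, 1254, 1008 and 1352 CPM in KO. All 8 basal libraries were above all 8 ML libraries, while WT basal replicates 3 and 4 overlapped with the LP libraries. A share of 5.46% of 16000 genes lay wholly higher in basal than in ML libraries. Against ML the difference was 1.97 log2 (SE 0.40, edgeR adjusted p = 0.00193) in WT, or 3.93-fold, and 2.31 log2 (SE 0.29, adjusted p = 2.47e-05) in KO. Against LP it was 1.42 log2 (SE 0.40, adjusted p = 0.0218) in WT and 1.58 log2 (SE 0.28, adjusted p = 8.86e-04) in KO. The WT call against LP was lost without replicate number 2 or 4 and without WT basal replicate 2 alone (1.12, adjusted p = 0.0514), and also with no expression filter (adjusted p = 0.0889) and in voom (0.0502).

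Junb, a partner of Fos, was higher in basal than in LP cells in both genotypes. Junb stood at 134, 187, 80.3 and 103 CPM in WT basal replicates 1 to 4 and at 91.1, 57.6, 25.3 and 62.0 CPM in WT LP. KO basal libraries held 154, 159, 126 and 133 CPM and KO LP libraries 63.9, 32.8, 60.8 and 48.8 CPM, with no overlap in KO and an overlap in WT. Wholly higher in KO basal than in KO LP libraries were 7.26% of 16000 genes. The difference was 1.52 log2 (SE 0.28, edgeR adjusted p = 0.00132) in KO and 1.11 (SE 0.36, adjusted p = 0.0446) in WT, where the call was lost without any 1 of the replicate numbers, without WT basal replicate 2 alone (0.84, adjusted p = 0.0985) and in voom (0.0775). Against ML, at 80.6, 85.2, 50.7 and 54.5 CPM in WT and 76.2, 46.4, 69.5 and 77.6 CPM in KO, Junb was higher in KO basal cells by 1.16 log2 (SE 0.28, adjusted p = 0.00685) and differed by 0.91 (SE 0.36, adjusted p = 0.0731) in WT. This WT difference passed with DESeq2 (adjusted p = 0.0463), voom (0.0453), all 24 libraries in the edgeR fit (0.0454) and the replicate number as a block in edgeR (0.0186). Junb overlaps Prdx2 on the other strand, and without strand in the counting their reads cannot be told apart. Prdx2 was lower in WT basal than in WT ML cells by -1.55 log2 (SE 0.30, adjusted p = 0.00139), and differed by -0.82 (SE 0.41, adjusted p = 0.181) in KO. Between basal and LP cells Prdx2 differed by -0.59 (SE 0.30, adjusted p = 0.217) in WT and by 0.38 (SE 0.41, adjusted p = 0.598) in KO. Only the last value had the same sign as the Junb difference. The part of Prdx2 reads in the Junb values was not tested.

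Fos stood at 1994, 1498, 679 and 745 CPM in WT basal replicates 1 to 4 and at 1718, 1173, 1275 and 1256 CPM in KO basal. LP libraries held 921, 606, 289 and 686 CPM in WT and 891, 457, 483 and 582 CPM in KO, and ML libraries held 1842, 1042, 1205 and 1198 CPM in WT and 1609.8, 799, 883 and 1594 CPM in KO. LP had the lowest mean in both genotypes. All 4 KO LP libraries lay under the KO basal ones (7.26% of 16000 genes did so) and all 4 WT LP libraries under the WT ML ones (10.4%). The WT basal and WT LP libraries overlapped, as did the KO LP and KO ML libraries. Fos was higher in KO basal than in KO LP cells by 1.22 log2 (SE 0.28, edgeR adjusted p = 0.00729), a call lost without replicate number 4 (0.0658). In WT the same difference was 0.99 (SE 0.37, adjusted p = 0.0858), and it passed with the replicate number as a block in edgeR (0.0194). LP to ML differences of Fos were -1.08 (SE 0.37, adjusted p = 0.0773) in WT and -0.99 (SE 0.28, adjusted p = 0.0503) in KO, and did not pass. The KO difference passed with DESeq2 (0.0271), with DESeq2 size factors in edgeR (0.0462), with no expression filter (0.0117) and with voom (0.00248). The WT difference passed with all 24 libraries in the fit (0.0433) and with voom (0.00652). With the replicate number as a block in edgeR both LP to ML differences passed (0.00827 in WT and 0.00652 in KO).

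Jun, the commonest partner of Fos, was lower in KO basal than in KO ML cells by -0.84 log2 (SE 0.27, edgeR adjusted p = 0.0391), and the call was lost without replicate number 1, 3 or 4 and without KO basal replicate 3 alone (-0.73, adjusted p = 0.0688). Jun stood at 502, 635, 298 and 504 CPM in KO basal replicates and at 1177, 715, 717 and 1068 CPM in KO ML. WT values were 580.4, 886, 252 and 298 CPM in basal, 602, 503, 285 and 614 CPM in LP and 1217, 912, 738 and 668 CPM in ML, and the WT basal to ML difference was -0.79 (SE 0.37, adjusted p = 0.136). Without WT basal replicate 2 it was -1.23 (SE 0.33, adjusted p = 0.0103). With all WT libraries it passed in voom (0.00932) and with the replicate number as a block in edgeR (0.0282). The antisense gene Junos, which overlaps Jun, did not exceed 8.08 CPM in any library.

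Fosb, Jund and Ier2 were called between no populations in either genotype. The largest difference of Fosb was between WT LP (1557, 2202, 1225 and 2538 CPM) and WT ML cells (2437, 3059, 3492 and 3218 CPM), at -0.69 log2 (SE 0.24, edgeR adjusted p = 0.0747). It was called in voom (adjusted p = 9.53e-04) and with the replicate number as a block in edgeR (0.0470). Jund, the Jun protein that is usually present without induction, lay between 24.4 and 101.2 CPM in all libraries. Ier2 had KO basal values of 44.0, 88.4, 8.13 and 40.7 CPM and differed from KO ML by 1.44 log2 (SE 0.56, adjusted p = 0.0865). Without KO basal replicate 3, the library at 8.13 CPM, Ier2 was higher in KO basal than in KO ML cells by 1.73 (SE 0.43, adjusted p = 0.00946) and than in KO LP cells by 1.49 (SE 0.43, adjusted p = 0.0263).

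The comparison of KO with WT asks whether loss of Id4 changes these genes within a population. No member was called in any population, with 8 libraries each. In basal cells 0 of 11307 genes were called (0%), with 383 at an unadjusted p under 0.05, and in LP cells 0 of 11700 (0%), with 439 such genes. In ML cells 1 of 11747 was called (0.00851%), the heat shock gene Hspa1b, whose reads are uncertain because of its near-identical copy Hspa1a, and this call was lost with the replicate number as a block. The 15 heat shock genes, Hspa1b among them, summed to 4329 to 6416.5 CPM in KO ML and to 6656 to 7695 CPM in WT ML libraries. These sums overlapped between genotypes in basal and LP cells, and their difference in ML cells was not tested. Among the members the smallest p belonged to Fosb in LP cells, with 1557, 2202, 1225 and 2538 CPM in WT and 2736, 1671, 3542 and 3691 CPM in KO, a difference of 0.63 log2 (SE 0.31, edgeR unadjusted p = 0.0610, adjusted p = 0.999). The other members differed by between -0.42 and 0.61 log2 over the 3 populations. The extremes were Fosl1 in ML cells (SE 0.72) and Fosl1 in LP cells (SE 0.68), each smaller than its standard error. The median over the 10 members was 0.17 log2 in basal, 0.14 in LP and -0.01 in ML cells, against 0.01, 0.00 and 0.01 over all genes tested. A change in the KO effect from one population to another was called for no member and for no gene (0% of 14082 in each of the 3 pairs of populations), with 980, 970 and 186 genes at an unadjusted p under 0.05 for basal minus LP, basal minus ML and LP minus ML. DESeq2, run on the KO comparisons, called 21, 4 and 11 genes in basal, LP and ML cells and again no member. Without WT basal replicate 2 and KO basal replicate 3, no member was called in basal cells.

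Replicates 3 and 4 were set against replicates 1 and 2 within each population, with genotype in the fit. The labels do not say what the numbers share, and the split itself was noticed in an earlier analysis of these same data. The Fosl1 pattern in LP cells was already known when the members were chosen. The p-values therefore measure the spread between these libraries only and are no independent test of the split. Fosl1, which encodes FRA1, was the only member called, and every library of replicates 3 and 4 lay above every library of replicates 1 and 2 in each population. Of 16000 genes, 2.32% in basal, 6.34% in LP and 6.76% in ML cells lay wholly higher in this way. In LP cells it stood at 28.7 and 45.2 CPM in WT replicates 1 and 2 and at 158 and 169 CPM in WT replicates 3 and 4. The KO LP values were 70.3 and 44.5 CPM, then 262 and 236 CPM. The difference was 2.16 log2 (SE 0.21, edgeR adjusted p = 2.60e-04), or 4.46-fold, and Fosl1 was the only member among the 3.07% of genes called higher. It was 2.18 in WT (SE 0.31, adjusted p = 0.0185) and 2.13 in KO (SE 0.31, adjusted p = 0.0200), and was called without any 1 library. Fitted on the 4 KO libraries alone it did not pass (adjusted p = 0.143).

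In ML cells Fosl1 stood at 8.93 and 11.8 CPM in WT replicates 1 and 2 against 77.2 and 44.8 CPM in replicates 3 and 4, and at 7.47 and 20.8 CPM against 51.8 and 24.1 CPM in KO. The difference was 1.97 log2 (SE 0.41, edgeR adjusted p = 0.0281), and Fosl1 was the only member among the 2.46% of genes called higher. This call was less secure: it was lost when any 1 of 6 of the 8 libraries was left out, with values of 1.71 to 2.03 log2, and it was kept without KO ML replicate 2 or 4. The replicate tags of the KO ML samples differ from their titles, and with the tags in place of the titles the difference was 2.36 log2 (adjusted p = 0.0597).

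In basal cells Fosl1 stood at 66.0 and 28.5 CPM in WT replicates 1 and 2 and at 161 and 286 CPM in replicates 3 and 4, with 107 and 46.6 CPM against 127 and 150.5 CPM in KO. The difference of 1.57 log2 (SE 0.40, edgeR unadjusted p = 0.00150) did not pass after adjustment (0.353), where 0 of 11307 genes did (0%) and 828 had an unadjusted p under 0.05. DESeq2 called it (adjusted p = 0.0259), as did the edgeR fit of all 24 libraries (0.0362) and the fit with no expression filter (0.0107). The difference was 2.19 (SE 0.53) in WT and 0.94 (SE 0.51) in KO basal cells. The pair difference of Fosl1 did not pass a test of difference between populations (-0.59 log2, SE 0.54, for basal minus LP; -0.44, SE 0.55, for basal minus ML; 0.15, SE 0.55, for LP minus ML). Those 3 tests called 0.0071%, 0.0284% and 0% of 14082 genes, and no member.

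**Figure D3:**
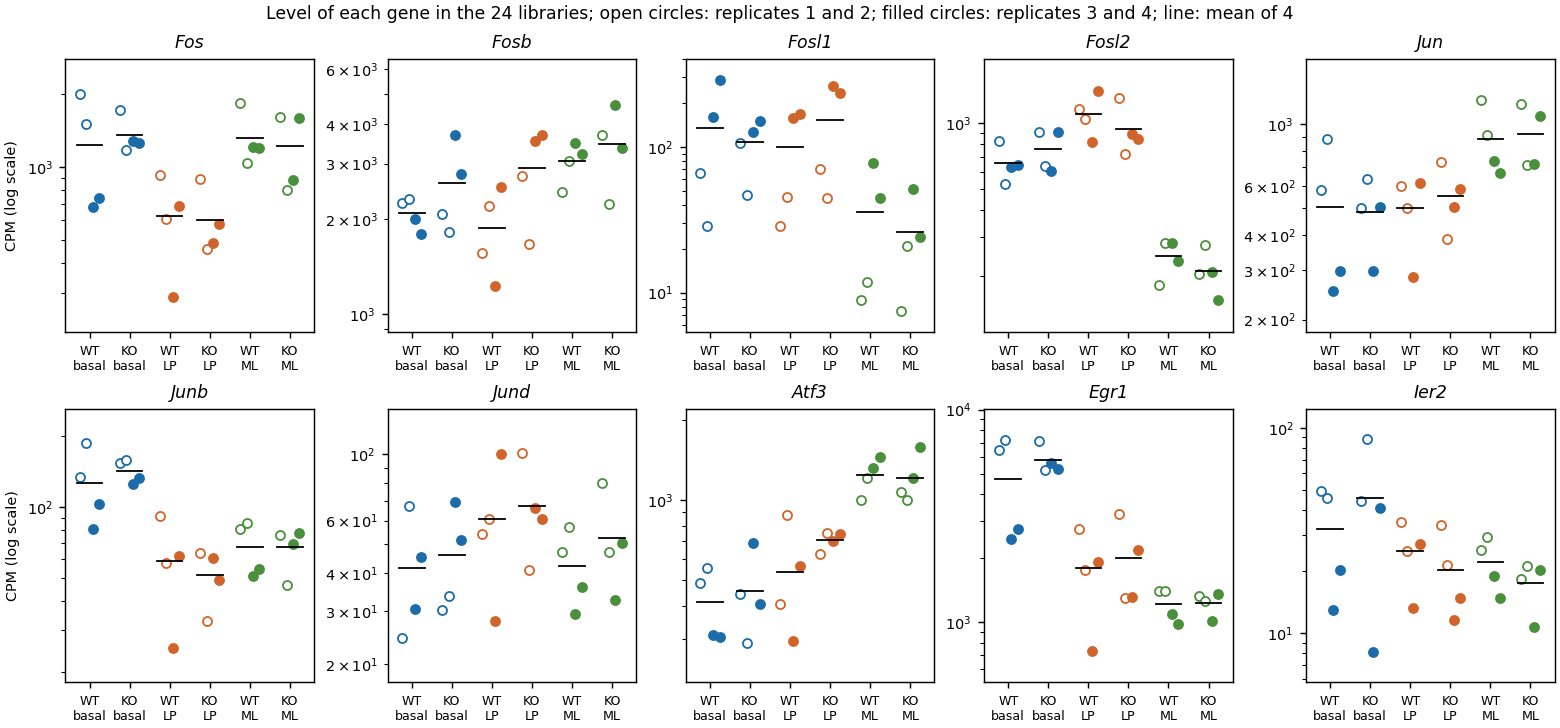
Level of each of the 10 genes in CPM (log axis) in the 24 libraries by group; open circles are replicates 1 and 2, filled circles replicates 3 and 4, and the line is the mean of 4. For Fosl1 the filled circles lie above the open ones in all 6 groups, and for Fosl2 and Atf3 the ML libraries stand apart.

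Fosl1 also differed between populations within KO. It was higher in KO LP than in KO ML cells by 2.59 log2 (SE 0.61, edgeR adjusted p = 0.0168) and in KO basal than in KO ML cells by 2.13 log2 (SE 0.60, adjusted p = 0.0183). Both calls were lost without replicate number 1 or 4, with all 24 libraries in the fit and with no expression filter. In WT the same differences were 1.52 (SE 0.75, adjusted p = 0.242) and 1.95 (SE 0.76, adjusted p = 0.0737). The latter passed without WT basal replicate 2 (2.28, adjusted p = 0.0496), with DESeq2 (0.0295) and with voom (0.0246). It also passed with the replicate number as a block in edgeR (5.33e-04). Each group mixes low values of replicates 1 and 2 with high ones of replicates 3 and 4, and the SD of Fosl1 over the 4 libraries was 115 CPM around a mean of 135 CPM in WT basal cells.

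The Fosl1 gene lies at chr19:5447547-5455946 on the plus strand of GRCm38, and Ccdc85b, on the opposite strand, overlaps it. Ccdc85b stood at no more than 2.49 CPM in any library and did not pass the filter. The 5 genes whose levels followed Fosl1 most closely over the 24 libraries, after the mean of each group had been removed, were Fbxo30 (r = 0.92), Wsb1 (0.92), Mat2a (0.91), Hivep2 (0.90) and Hbegf (0.90), out of 7695 genes of at least 10 CPM. The libraries share the difference between the replicate pairs, and with that removed the same r were 0.78, 0.61, 0.80, 0.53 and 0.54. Hbegf encodes a ligand of the epidermal growth factor receptor and is also in the list of genes known as AP-1 targets. For Fos the 5 closest were Zfp36 (0.89), Egr1 (0.88), Cd200 (0.85), Dhrs3 (0.81) and Jun (0.80).

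Some other members had differences of the opposite sign to Fosl1 in replicates 3 and 4, and none passed. Ier2 had negative differences in all 3 populations, -1.49 log2 in basal (SE 0.54, edgeR adjusted p = 0.568), -0.78 in LP (SE 0.31, adjusted p = 0.174) and -0.55 in ML cells (SE 0.25, adjusted p = 0.209). In basal cells its libraries did not overlap, with 49.1, 45.6, 44.0 and 88.4 CPM in WT and KO replicates 1 and 2 and 13.0, 20.4, 8.13 and 40.7 CPM in replicates 3 and 4. Junb libraries did not overlap there either (134, 187, 154 and 159 CPM against 80.3, 103, 126 and 133 CPM; -0.55 log2, SE 0.29, adjusted p = 0.724), and 2.42% of 16000 genes lay wholly lower in replicates 3 and 4 in this way. Jun (-0.97, SE 0.30), Egr1 (-0.78, SE 0.28) and Fos (-0.73, SE 0.27) had unadjusted p of 0.00587, 0.0142 and 0.0183 in basal cells and adjusted p of 0.436, 0.568 and 0.568. Jund differed by -0.67 log2 in ML cells (SE 0.21, adjusted p = 0.0879) and was called only with no expression filter. Fosb, a Fos relative with the same early kinetics as Fos, had positive differences of 0.24, 0.38 and 0.34 in basal, LP and ML cells, each under 2 standard errors.

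**Figure D4:**
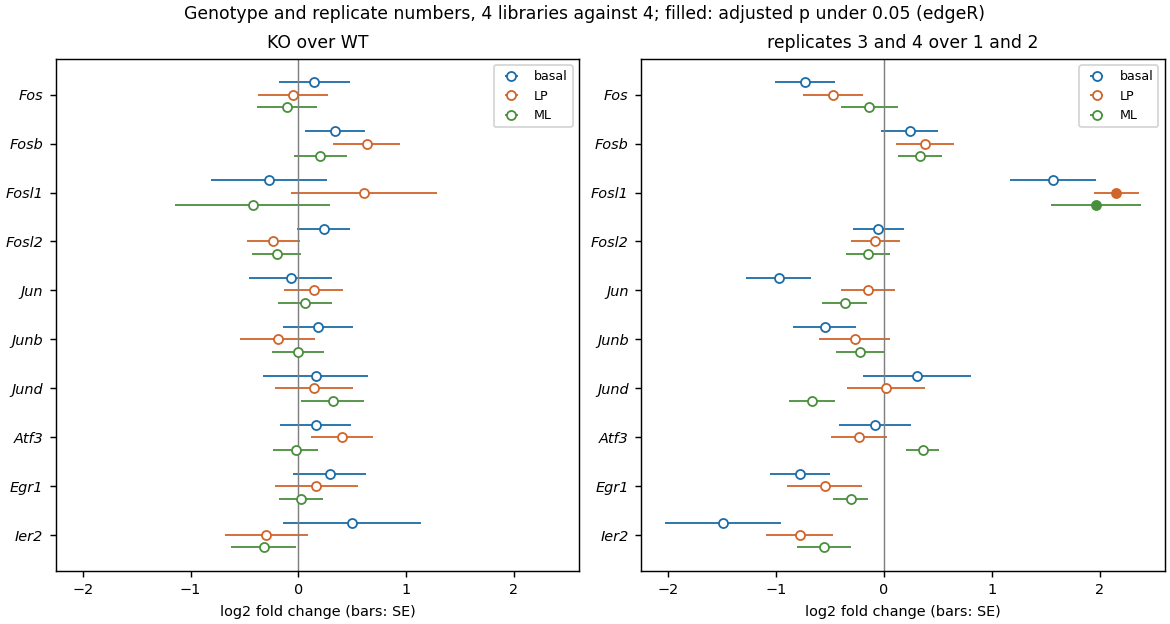
Log2 fold change of the 10 genes for KO over WT (left) and for replicates 3 and 4 over 1 and 2 (right) in the 3 populations; bars are standard errors and filled symbols have an adjusted p under 0.05. On the left every symbol is open; on the right Fosl1 lies between 1.57 and 2.16 and is filled in LP and ML.

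In basal cells the pair differences of WT and KO are given side by side. WT basal replicates 3 and 4 were the libraries with the lowest Egr1 and Fos among the basal ones, whereas KO basal replicates 3 and 4 lay within the range of KO basal replicates 1 and 2 for both genes. Between WT replicates Egr1 differed by -1.46 log2 (SE 0.29, edgeR adjusted p = 0.875) and between KO replicates by -0.09 (SE 0.28, adjusted p = 0.950). The KO to WT difference of Egr1 was -0.22 log2 (SE 0.28) in replicates 1 and 2 and 1.15 (SE 0.29) in replicates 3 and 4. The test of this difference gave 1.37 log2 for Egr1 (SE 0.40), 1.51 for Atf3 (SE 0.53), 1.25 for Fos (SE 0.42) and 1.14 for Fosb (SE 0.42), from 2 libraries in each group and with unadjusted p from 0.00499 to 0.0174 in edgeR. None of these passed adjustment (0.954 for each), and the test called 0% of genes in basal, LP and ML cells alike, with 571, 402 and 411 at an unadjusted p under 0.05. The median over the 10 members was 1.10 log2 in basal, 0.27 in LP and 0.24 in ML cells, against 0.00, -0.02 and 0.01 over all genes. Several members correlated with each other, so they do not count as 10 separate results. Atf3 (554 and 686 CPM) and Fosb (2312 and 3694 CPM) peaked in WT basal replicate 2 and KO basal replicate 3, the libraries set apart above. Egr1 did so in WT only, and Fos in neither. The part of these libraries in the differences was not tested.

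Other library values were compared between the replicate numbers as well. Mitochondrial ribosomal RNA genes took 15.3% to 26.2% of counts in basal replicates 1 and 2 and 13.5% to 17.6% in replicates 3 and 4, and the ranges overlapped in all 3 populations. The 15 heat shock genes summed to 6051 to 7867 CPM in basal replicates 1 and 2 and to 8189.5 to 12276 CPM in replicates 3 and 4. Of them 14 of 15 had positive differences, with a median of 0.88 log2 against -0.08 over all genes and no call. In LP cells the same sums overlapped, at 6168 to 9200.5 and 5978 to 8384 CPM, and 1 heat shock gene was called higher, Bag3 (0.79 log2, edgeR adjusted p = 0.0427). In ML cells 1 was called lower, Hspd1 (-0.90, adjusted p = 0.0307). Luminal progenitor markers in basal libraries summed to 781 to 6319 CPM in replicates 1 and 2 and to 849 to 1396 CPM in replicates 3 and 4, and without WT basal replicate 2 and KO basal replicate 3 the Fosl1 difference in basal cells was 1.41 log2 (SE 0.38, adjusted p = 0.381). The part of these values in the Fosl1 difference was not tested.

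Genes around AP-1 were read from lists chosen with earlier results of these data known. Between WT and KO no gene of the lists of other AP-1 family and dimer partner genes (21), other immediate early genes (34), MAP kinase, serum response factor and feedback genes (30) or genes known as AP-1 targets (29 matched) was called in any population. The medians of these 4 lists were between -0.15 and 0.19 log2. The smallest p in each population and list included Rps6ka1, a kinase downstream of ERK, in basal cells (1.70 log2, SE 0.46, edgeR adjusted p = 0.998), and Sprr1a, an AP-1 target of cornified epithelium, in LP cells (2.93, SE 0.90, adjusted p = 0.999). Neither passed.

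Between the replicate pairs no gene of these 4 lists was called in basal cells, with medians of 0.34, 0.20, 0.12 and 0.20 log2 in the order above against -0.08 over all genes. There Tgfa, another ligand of the epidermal growth factor receptor, had the smallest p (2.31 log2, SE 0.42, edgeR adjusted p = 0.125; 25.3 CPM in replicates 1 and 2 and 112 CPM in replicates 3 and 4). In LP cells 5 of 24 tested AP-1 targets rose in replicates 3 and 4 and none fell, with a list median of -0.00455 against -0.05 over all genes, of which 3.07% rose and 0.684% fell. Hbegf rose by 1.53 log2 (SE 0.19, adjusted p = 0.00138), from 53.3 to 152 CPM, and Hmox1, which degrades heme, by 2.18 (SE 0.35, adjusted p = 0.00628), from 29.5 to 129 CPM. Of 33 tested immediate early genes 4 rose and none fell, among them Mcl1, an inhibitor of apoptosis (1.09, SE 0.21, adjusted p = 0.0125), and the kinase gene Sgk1 (0.75, SE 0.17, adjusted p = 0.0249), with a list median of -0.15. Of 30 MAP kinase and feedback genes 2 rose: Srf, which encodes serum response factor (1.25, SE 0.25, adjusted p = 0.0159), and Map2k4, a kinase that activates JNK (1.22, SE 0.28, adjusted p = 0.0282), with a list median of -0.04. Of 19 AP-1 family and partner genes Creb5 rose (1.86, SE 0.29, adjusted p = 0.00455), from 25.4 to 88.2 CPM, with a list median of 0.50.

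In ML cells 3 of 34 immediate early genes rose and 1 fell, with a list median of 0.165 log2 against -0.03 over all genes, of which 2.46% rose and 2.89% fell. Gadd45a, induced by DNA damage and stress, rose by 1.81 log2 (SE 0.34, edgeR adjusted p = 0.0211) and Sgk1 by 0.67 (SE 0.17, adjusted p = 0.0435), while Socs3, a brake on cytokine signalling, fell by 1.12 log2 (SE 0.25, adjusted p = 0.0287). Map2k4 was the 1 of 30 MAP kinase and feedback genes that rose, by 1.04 (SE 0.16, adjusted p = 0.00534). Atf1 fell by 1.13 log2 (SE 0.21, adjusted p = 0.0136), the 1 call among 18 AP-1 family and partner genes, whose median was 0.21.

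Across the 24 libraries, with the mean of each group removed, 35 of the 45 pairs of members correlated positively. After Benjamini-Hochberg adjustment over the 45 pairs, 11 positive and 2 negative pairs passed a permutation test within groups (100000 resamples, two-sided). The test treated the libraries as independent, although same-numbered libraries and the replicate pairs shared deviations, so its p-values can be too small. The closest pair was Fos and Egr1, with Pearson r = 0.875 (permutation p = 7.00e-05, adjusted p = 0.00157) and Spearman rho = 0.837 (adjusted p = 0.00202), and r = 0.83 without the 2 libraries farthest from the median of Fos. Jun and Junb had r = 0.827 (adjusted p = 9.0e-04) and rho = 0.794 (adjusted p = 0.00135), with r = 0.786 without the 2 farthest. Jun and Egr1 (0.817), Junb and Egr1 (0.806), Fos and Jun (0.803), Jun and Ier2 (0.768) and Fos and Junb (0.765) followed, with adjusted p of at most 0.00701 by permutation. Fosb passed with Atf3 alone (r = 0.610, permutation adjusted p = 0.0171).

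Fosl1 correlated negatively with Ier2 (r = -0.605, permutation adjusted p = 0.00799; rho = -0.640, adjusted p = 0.0123; r = -0.563 without the 2 farthest libraries). With Jun r was -0.600 (permutation adjusted p = 0.0344), rho was -0.557 (adjusted p = 0.0567) and r without the 2 farthest was -0.506. Its libraries fall into the replicate pairs, however, and with the mean of each group and replicate pair removed these r were -0.02 and -0.32. The r of Fos and Egr1, Jun and Junb, and Fos and Jun were then 0.78, 0.82 and 0.72. No pair passed in that form, in which each mean comes from 2 libraries (smallest adjusted p = 0.151, by permutation). That smallest value was for Fosl1 and Fosl2, whose r was 0.15 with group means removed and 0.70 with the pair means removed as well.

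**Figure D5:**
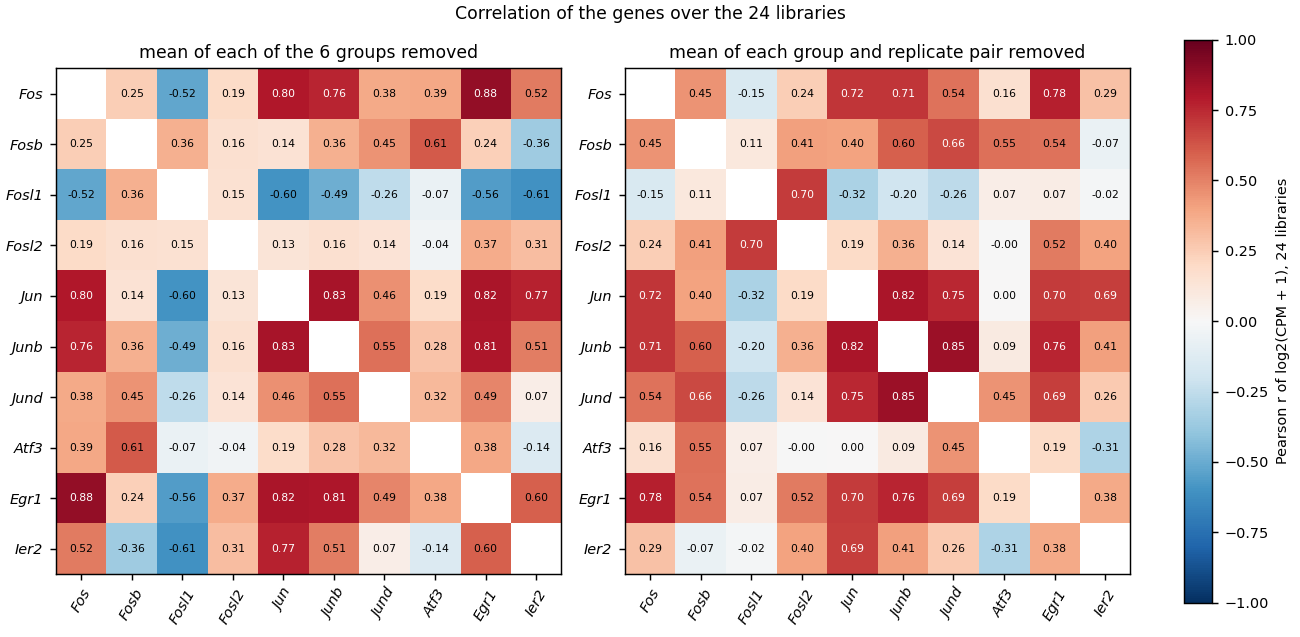
Pearson r of log2(CPM + 1) between the 10 genes over the 24 libraries, with the mean of each of the 6 groups removed (left) and with the mean of each group and replicate pair removed (right); color runs from -1 to 1. Fos, Jun, Junb and Egr1 form a block of r of 0.76 or more on the left and of 0.70 or more on the right, and the negative values of Fosl1 with Ier2 on the left are near 0 on the right.

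On GRCm38 8 further members lie at chr12:85473890-85477273 (Fos), chr7:19302696-19310051 (Fosb), chr5:32135801-32157842 (Fosl2), chr4:95049034-95052222 (Jun), chr8:84974484-84978718 (Junb), chr8:70698949-70700616 (Jund), chr1:191170296-191218039 (Atf3) and chr8:84661331-84662852 (Ier2), and all 10 are protein-coding. Jund is overlapped on the other strand by Gm11175, which stood at up to 45.2 CPM, so the values of Jund are uncertain where the counting does not use strand.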

How the data were processed

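Gene-level expected counts were used as deposited by the authors; per the submitters' processing notes they come from cutadapt, STAR and RSEM on mm10, with versions and the use of strand not given in the sources used here. Counts were rounded to whole numbers and tested with edgeR 4.0.16 (quasi-likelihood, TMM scaling, filterByExpr, Benjamini-Hochberg threshold 0.05) in R 4.3.3; limma 3.58.1 (voom) and DESeq2 1.42.0 gave alternatives. Fits covered all genes above the filter, 14082 with 24 libraries. Correlations used log2(CPM + 1). Amplified reads carry no molecular identifiers, so CPM equivalents of 3 counts cover counting error only. Replicate numbers come from titles. Numbers were taken as pairing groups only where every same-numbered correlation of deviations exceeded a fixed cut. This held for KO with WT in LP (0.127 to 0.379) and ML (0.135 to 0.350), where 3 of 4 libraries correlated best with their own number. The main tests used no block, since the labels do not say that a number joins samples. Their p-values therefore leave out any pairing by number, also where the cut was met. Some differences that did not pass in them passed with the block, given as an alternative. The genes named were the 10 members, the 5 genes most like Fosl1 and Fos, and up to 2 called genes in each direction of each list, or else the one of smallest p. The members and lists were chosen with earlier results of these data known, among them the Fosl1 pattern in LP. Scripts were tested on simulated data. One item among the listed genes is not reported here.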

Additional observations from a re-analysis of the deposited data

How the results depend on the processing

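Of the 60 group means of members none moved by over 1 SD under DESeq2 size factors (ratios 0.976 to 1.06), and 0 members were called between KO and WT under any alternative. DESeq2 called 21, 4 and 11 genes between KO and WT in basal, LP and ML cells, against 0, 0 and 1; in basal cells voom called 1, no expression filter 30 and all 24 libraries 13, and in ML cells DESeq2 size factors in edgeR 0. The replicate block called 0 genes in ML cells. In the 7 comparisons that missed the cut for pairing (lowest correlation -0.00341), 23 of 28 still correlated best with their own number. This included 4 of 4 in each comparison of WT populations. There the block called 6 members in WT basal against ML (3 without it) and 5 in WT LP against ML (2 without it). The block moved the KO difference of Fosl1 in basal cells to 0.053 log2 (replicate pair as a term: 0.030). The block also called Fos in WT basal against LP and in KO LP against ML, and no call of a member was lost under it.

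Among KO populations DESeq2 called 3146 genes in basal against LP (1883 by edgeR), 3708 in basal against ML (2463) and 1221 in LP against ML (721), and 5 members in WT basal against ML. Voom called 2151 genes and 6 members in KO LP against ML (all 24 libraries: 1 member), 3085 genes (1470 by edgeR) and 4 members in WT LP against ML, 1 member in WT basal against LP and 7 in WT basal against ML. In the tests of differences voom called 1 gene for the KO effect (basal minus ML), and 9, 0 and 1 for the replicate pair effect (LP minus ML, basal minus LP, basal minus ML).

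Between replicate pairs, DESeq2, no filter and all 24 libraries called 230, 82 and 414 genes in basal (voom 19) with 1 member each, 1054, 1036 and 86 in LP and 1114, 1291 and 63 in ML cells, against 0, 439 and 628; no filter gave 2 members in ML. WT alone called 109 genes in LP and 0 in ML, with 0 members in ML, and KO alone 0 and 1, with 0 members in either. Tag numbers in ML called 2 genes and 0 members. With pair means removed 0 correlations passed.

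Leaving out 1 replicate, genes and members called ranged over 1121 to 2808 and 0 to 1 (WT basal against LP), 1898 to 4035 and 3 to 5 (WT basal against ML), 663 to 1525 and 1 to 2 (WT LP against ML), 955 to 2191 and 2 to 5 (KO basal against LP), 1294 to 2706 and 3 to 6 (KO basal against ML), 118 to 730.0 and 1 to 2 (KO LP against ML). Pair comparisons gave 0 to 0 genes in basal, 170.0 to 423 in LP and 82 to 640.0 with 0 to 1 members in ML; KO against WT gave 0 to 1 in LP and 0 to 0 in ML. The difference tests gave 0 to 1 (KO effect, basal minus LP and basal minus ML), and 0 to 1, 0 to 0 and 0 to 2 (pair effect, LP minus ML, basal minus LP, basal minus ML). Fosl1 turned sign in differences that did not pass, with ranges of -1.11 to 0.066 (pair effect, basal minus LP), -1.50 to 0.68 (basal minus ML), -0.38 to 0.63 (LP minus ML), -0.61 to 0.37 (KO in basal) and -1.02 to 0.27 (KO in ML). The cause was not tested.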
